A study of Rattus norvegicus with 98 samples.

Results

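A total of 857 windows of 1 kb, out of 145254 occupied in at least 1 library, carried a peak of acetylated histone H3 (H3K27ac) in at least 8 more untreated than fluoxetine-treated libraries of rat brain, and are called lost windows here. They were found by cutting each deposited peak list to its best 19378 peaks by peak score, the length of the shortest list, and laying the peaks on the Rn5 genome, chromosomes 1 to 20. A window was occupied when peaks covered 500 bp or more of it. The windows were chosen by this difference in library numbers, so their Sham and FT values are a description and carry no test.

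The rats were male Long-Evans animals, 2 months old. The FT group received fluoxetine at 18 mg per kg of body weight per day in its drinking water for 6 weeks, and the Sham group received water alone. Each library came from micropunches of 1 brain region, with tissue of several animals pooled into a replicate and the replicates of each group numbered 1 and 2. The region labels were taken as given, since without gene annotation they could not be checked against marker genes. The lost windows were read in 46 Sham and 46 FT libraries of 24 regions. Both replicates of both groups were held for 21 regions, whereas arc had 1 Sham and 2 FT libraries, MPOA 2 and 1, and PVN 1 and 1. The habenula (HB) was left out because its Sham library stood apart from the rest, with a median peak width of 500 bp.

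H3K27ac marks nucleosomes at promoters and enhancers that are in use, and is written mainly by the acetyltransferases p300 and CBP and removed by histone deacetylases. ChIP-seq with an antibody to the mark turns it into peaks, whose rank within a library orders the sites by strength. Fluoxetine blocks the serotonin transporter and so raises extracellular serotonin, which is supplied to the forebrain by neurons of the raphe nuclei. In punched tissue, fewer cells with the mark and less mark per cell cannot be told apart.

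The libraries differed in the length of their full lists, and read depth was unknown. Sham lists held 19378 to 53135 peaks with a median of 39564, and FT lists 24429 to 54505 with a median of 48427. Fewer than 35000 peaks were listed in 19 Sham and in 2 FT libraries. At the same number of peaks the FT lists occupied 40590 ± 2280 windows (SD, n = 46) and the Sham lists 35815 ± 5262 (SD, n = 46), so FT peaks covered more of the genome within the cut. The part of list length in the results was not tested.

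Of the 71895 windows occupied in at least 8 libraries, 1.19% were lost, whereas 15.7% were occupied in at least 8 more FT than Sham libraries. The 2 counts drew closer once the lists were cut to 1 covered length in place of 1 number of peaks, with 2222 windows lost and 3349 in the opposite direction, against 857 and 11283. The lost windows were occupied in a median of 19 Sham libraries (8 to 45) and 9 FT libraries (0 to 37), against 18 and 22 over all windows occupied in at least 8 libraries. Their median excess was 9 Sham libraries and the largest was 25. No FT library occupied 37 of them, and 5 or fewer did so in 277. At the threshold itself lay 319 windows with an excess of exactly 8, at a median of 17 Sham and 9 FT libraries. Just outside it lay 534 windows with an excess of 7, at a median of 15 Sham and 8 FT libraries.

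With at most 2 Sham libraries a region, the rule itself spread each loss over at least 4 regions. A lost window was occupied in fewer FT than Sham libraries, as a share of those of the region, in a median of 9 regions (4 to 18) and in more FT libraries in a median of 1 region (0 to 7). For 315 of the 857 no region went towards FT. A Sham peak was present in a median of 13 of the 24 regions, in 20 or more regions for 133 windows, and in 8 or fewer for 108. In a median of 2 regions and at most 8, both Sham libraries and no FT library held the window, and 67 windows showed this in no region.

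In each of the 24 regions the Sham libraries occupied more lost windows on average than the FT libraries did. The nucleus accumbens shell (NaCshell), a target of midbrain dopamine neurons, gave one of the deepest losses. Its Sham libraries occupied 478 and 444 of the 857 windows and its FT libraries 161 and 63, which left the FT mean at 24.3% of the Sham mean. On the full lists they were 654 and 543 in Sham and 226 and 674 in FT. The dorsal dentate gyrus (dorDG), where new granule neurons arise in adult rats, held few of the windows to begin with. There the Sham libraries occupied 246 and 200 and the FT libraries 54 and 46, at 22.4% of the Sham mean. In CMA the values were 411 and 447 against 134 and 163, or 34.6%. The prelimbic cortex (PLC) stood at 474 and 283 against 134 and 146, with the Sham replicates further apart than the FT replicates. Those Sham lists held 30577 and 19629 peaks and, once cut, occupied 40.9% and 21.1% of all windows occupied in at least 8 libraries. Of all such windows, 13.8% were held in a lower share of FT than Sham libraries in NaCshell, 12.1% in dorDG, 8.28% in CMA and 4.93% in PLC. A higher share in FT was met by 17.6%, 7.99%, 14.4% and 37.4% of them in these regions. On the full lists PLC held 598 and 284 lost windows in Sham and 680 and 656 in FT. In CMA these were 679 and 708 against 641 and 693, and in dorDG 760 and 689 against 635 and 650.

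The 2 treatments lay closest in the locus coeruleus (LC), the source of noradrenaline for the forebrain. Its Sham libraries occupied 223 and 269 lost windows and both FT libraries 220, so the FT mean was 89.4% of the Sham mean. Of all windows occupied in at least 8 libraries, 7.42% were held in a lower share of FT than Sham libraries in LC and 14.5% in a higher share. The insular cortex followed with 332 and 321 against 261 and 251, at 78.4%. Snt stood at 470 and 474 against 391 and 332, at 76.6%. In the periaqueductal gray (PAG) only 147 and 209 windows were occupied in Sham and 114 and 93 in FT. Within each of the 21 regions with all 4 libraries the lowest Sham library lay above the highest FT library, and the gap was smallest in LC at 223 against 220. By group of regions the FT mean was 32.7% of the Sham mean in the nucleus accumbens, 39.5% in the amygdala, 41.9% in the dentate gyrus, 54.1% in neocortex and 70.1% in the hindbrain regions.

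**Figure D1:**
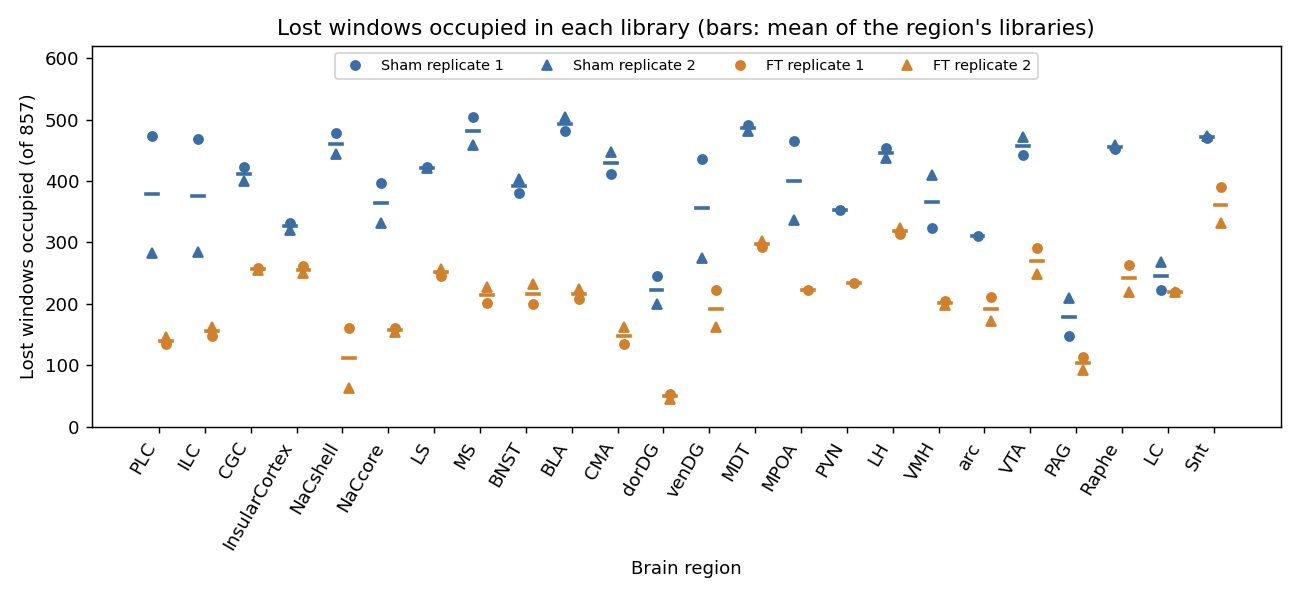
Number of the 857 lost windows occupied in each cut peak list (vertical axis), by brain region (horizontal axis), with Sham in blue, FT in orange, circles for replicate 1, triangles for replicate 2 and bars for the mean. The FT points lie below the Sham points in all 21 regions with 4 libraries, widest apart in NaCshell and nearest in LC.

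Counted window by window, the pattern of both Sham libraries with a kept peak and neither FT library was read beside its share among all windows occupied in at least 8 libraries, and nothing is drawn from the excess since the rule used the same libraries. The counts ran from 1.75% of the 857 lost windows in PAG to 19.5% in NaCshell. Each bracket gives the share of all windows with the pattern in that region, not the lost count as a percentage. NaCshell held 167 such lost windows (2.13% of all windows), CMA 154 (1.47%), the basolateral amygdala (BLA) 146 (1.07%) and the medial septum (MS) 135 (0.74%). The prelimbic cortex held 127 (0.53%), Raphe 127 (2.38%), the ventral tegmental area (VTA) 96 (1.28%), dorDG 94 (2.89%) and MDT 92 (0.965%). Lower counts came from NaCcore with 86 (0.697%), ILC with 73 (0.434%), CGC with 67 (0.805%), VMH with 65 (0.768%), the ventral dentate gyrus (venDG) with 61 (1.33%), BNST with 56 (0.672%), the lateral septum (LS) with 55 (0.615%) and LH with 51 (0.682%). The lowest were Snt with 35 (0.529%), LC with 22 (1.05%), InsularCortex with 22 (0.74%) and PAG with 15 (0.723%). The opposite pattern, both FT libraries and neither Sham library, was met by at most 5 lost windows in a region except LC, which had 14.

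Most lost windows were not empty in the FT lists as deposited. With the full lists, 662 of the 857 windows (77.2%) were occupied in more FT than Sham libraries, 39 in equal numbers and 156 (18.2%) in fewer FT libraries. The median difference was 4 libraries in favour of FT, against 5 over all windows occupied in at least 8 libraries of the cut lists. An excess of at least 8 Sham libraries was left in 77 of them. Over the full lists, 0.552% of the 135925 windows occupied in at least 8 libraries met that excess. A full FT list occupied 693 ± 99.5 lost windows (SD, n = 46) and a full Sham list 651 ± 136 (SD, n = 46), whereas the cut lists occupied 209 ± 73.5 and 389 ± 92.9.

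**Figure D2:**
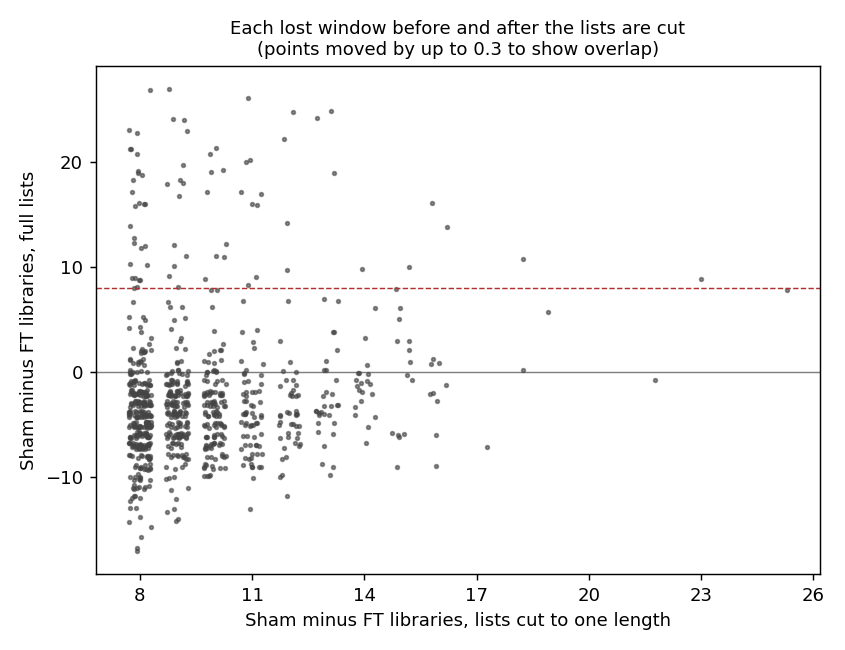
Each of the 857 lost windows as a point, with the Sham minus FT number of libraries in lists cut to 19378 peaks (horizontal axis) against the same difference in the full lists (vertical axis). The solid line marks no difference and the dashed line the excess of 8 libraries, which 77 windows still reach, whereas 662 lie below the solid line.

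The peaks at lost windows stood low in their lists, as the cut favours. In the Sham lists, cut to ranks 1 (best) to 19378, their median rank was 14574 ± 1653 (SD, n = 46 libraries), against 8004 ± 817 for peaks at all windows occupied in at least 8 libraries. They ranked lower in all 46 Sham libraries. The last 25% of the cut list held 51.9% ± 11.5 of them and the first 25% 3.32% ± 3.81 (SD, n = 46), against 17.9% ± 3.07 and 32.0% ± 4.12. The FT peaks that were left at lost windows had a median rank of 15351 ± 761 (SD, n = 46).

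Within a region, each Sham full list was then set beside each FT full list, in 89 pairs that share libraries. The lists differ in length and the rule favours windows that fell past the cut in FT, so the ratios below describe the windows and show no change of their own. At lost windows covered in both, the FT rank number was a median of 1.22 times the Sham rank number (0.897 to 2.83 over pairs), and the ratio exceeded 1 in 86 of 89 pairs. Over all windows the ratio was 1.02 and exceeded 1 in 67 pairs. For the peak caller's significance, given as −log10 of the p-value, the values differed. At lost windows with a peak in both lists it was a median of 11.8 in Sham and 14.9 in FT, with a median ratio of FT to Sham of 1.15 (0.493 to 2.74), below 1 in 27 of 89 pairs. Over all windows the median ratio was 1.46 (0.561 to 7.54), below 1 in 10 pairs. The last peak kept at the cut stood at a median of 11.4 in Sham lists (4 to 25.3, n = 46) and at 18.98 in FT lists (4.94 to 29.4, n = 46), and it was higher in FT in 79 of 89 pairs.

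Which windows counted as lost turned on where the lists were cut. With the best 10000 peaks of each list 867 windows were lost, of which 43 were among the 857. With the full lists 750 were lost, of which 77 were among the 857.

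What remained in FT was followed for each of 19052 combinations of a lost window, a Sham library that occupied it and an FT library of that region that did not. The window itself was covered by an FT peak beyond the cut in 84.7% of them. A kept FT peak lay within 2 kb, overlap included, in 3.97%, against 23.4% of the 336593 such combinations over all windows. The gap lay in kept peaks that overlapped the window but covered less than 500 bp of it, at 1.78% against 20.98%. Kept peaks within 2 kb without overlap were about as frequent as over all windows, at 2.19% against 2.38%. Another peak beyond the cut lay within 2 kb in 3.77%. No FT peak of any rank lay within 2 kb in 7.53%, against 3.36% over all windows. The 3.97% was 10.04% with lists of 35000 peaks or more alone, 9.20% without the Sham replicate 2 libraries and 49.9% where only the window holding the peak centre counted as occupied.

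The regions differed in how often nothing was left. In NaCshell no FT peak lay within 2 kb in 40.7% of the combinations, against 30.7% over all windows of that region. The FT replicate 1 list of NaCshell held 24429 peaks, the shortest in FT, and on its full length it occupied 226 lost windows against 674 in FT replicate 2. With the replicate 1 list no FT peak lay within 2 kb in 267 of 354 and 237 of 315 combinations. With FT replicate 2 it was 46 of 420 and 51 of 389. In the prelimbic cortex the share with no peak was 15.9% (3.88% over all windows of the region), in PAG 10.9% (0.884%) and in MPOA 10.2% (1.99%). In PAG these cases came with Sham replicate 2 alone (30192 peaks), 35 and 4 beside the FT replicates. In MPOA 44 came with Sham replicate 2 (20491 peaks) and 6 with replicate 1. In the prelimbic cortex they came with both Sham replicates, 45 and 33 with replicate 1 and 52 and 45 with replicate 2. It was 0 of 436 combinations in InsularCortex, 0 of 970 in Raphe, 0 of 573 in Snt and 0 of 160 in PVN. Kept FT peaks within 2 kb were most frequent in LC at 9.46%, venDG at 7.65% and PVN at 7.50%, against 41.3%, 38.2% and 24.3% over all windows of these regions. Kept peaks without overlap made up 4.05%, 2.35% and 3.75% there, against 2.26%, 2.52% and 2.37% over all windows.

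**Figure D3:**
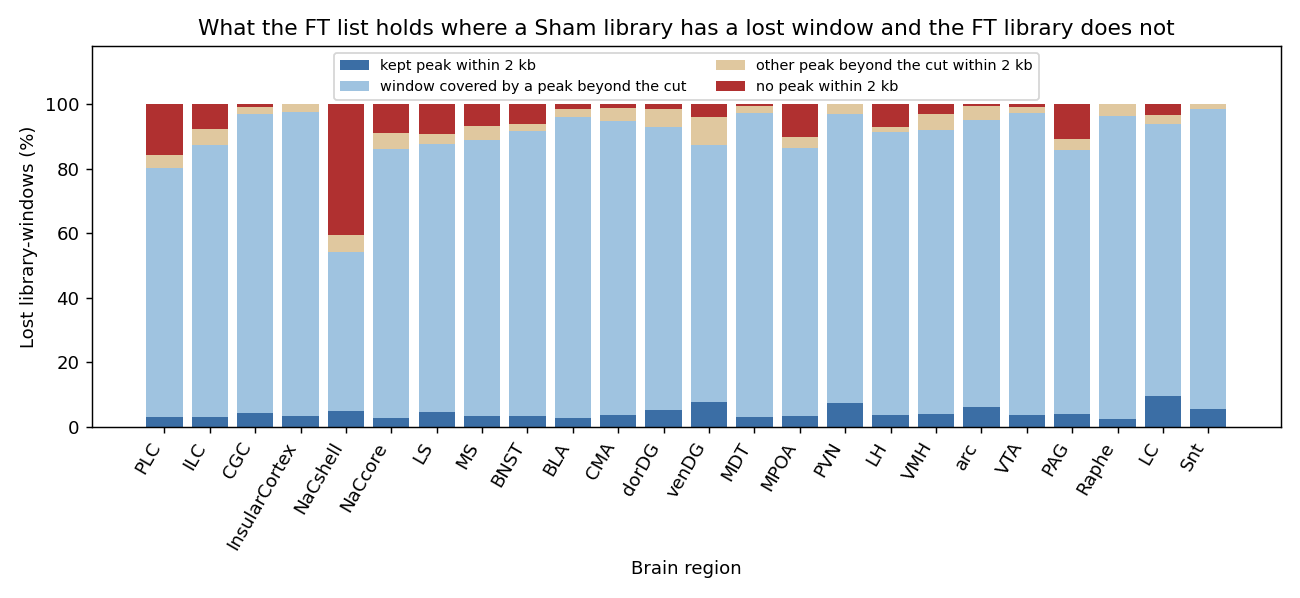
Share of combinations of a lost window, a Sham library with it and an FT library without it (vertical axis, %) by what the FT list holds there, for each brain region (horizontal axis). The pale blue part, a peak beyond the cut over the window itself, is the largest in every region and covers 84.7% over all regions, while NaCshell has the largest part with no peak at 40.7%.

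The peaks over lost windows were narrower than over other windows. Kept Sham peaks over them had a median width of 1648 ± 253 bp, against 1972 ± 210 bp over all windows (SD, n = 46), and were narrower in all 46 Sham libraries. The FT peaks left there measured 1921 ± 155 bp, against 2172 ± 100 bp (SD, n = 46), and were also narrower in all 46 FT libraries. In Sham lists 79.3% ± 3.66 of the peaks had their centre inside the lost window, against 53.0% ± 6.87 over all windows (SD, n = 46). In the full lists the ratio of FT to Sham width was a mean of 1.10 at lost windows and 1.12 over all windows, so width followed the other windows.

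The 857 windows formed 733 loci, of which 610 were single windows, 122 were 2 adjoining windows and 1 was 3. No other window occupied in at least 8 libraries lay within 2 kb of 172 lost windows (20.1%, against 5.17% of all). In the cut lists a Sham excess in mean library numbers was seen at the lost window and at its adjoining windows. On average 20.9 Sham and 11.2 FT libraries occupied the lost window itself, 7.54 and 5.36 the window 1 kb before it, and 7.72 and 5.54 the window 1 kb after it. At 2 kb before it the values were 0.715 and 0.714, against 3.35 and 4.19 around all windows occupied in at least 8 libraries. With so few libraries at that distance, how far the difference reached cannot be said. A window occupied in at least 8 more FT than Sham libraries lay within 2 kb of 17 lost windows (1.98%), against 31.1% of all windows. The latter share counts the window itself, and 15.7% of all windows met that FT excess themselves. No lost window can meet it, so nothing is drawn from the gap. By chromosome, lost windows made up 0.743% (chromosome 10) to 1.66% (chromosome 20) of the windows occupied in at least 8 libraries.

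**Figure D4:**
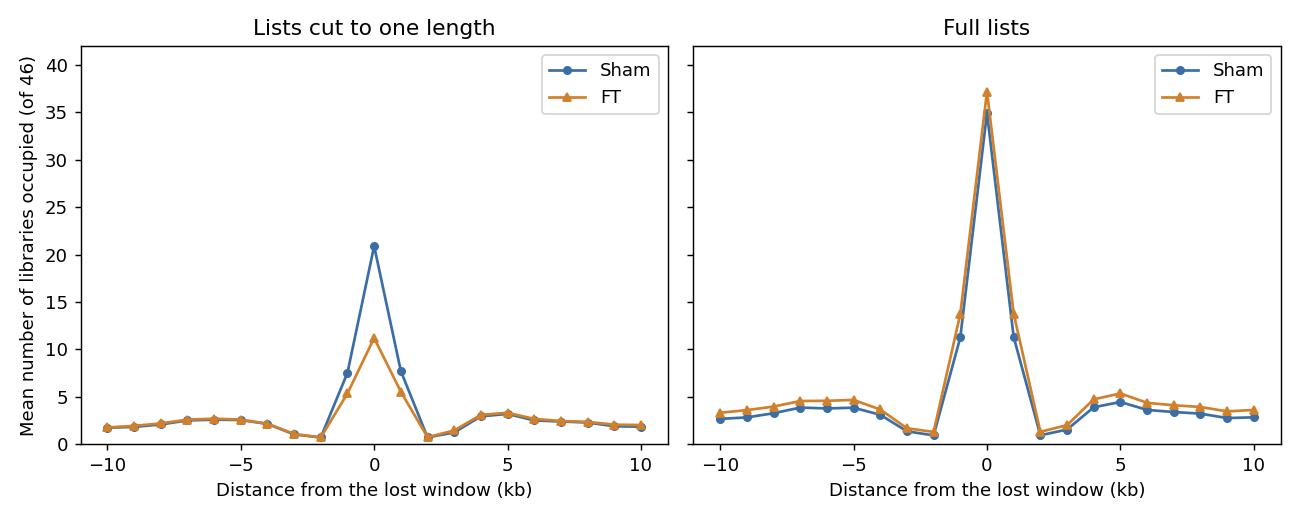
Mean number of libraries (vertical axis, of 46 per treatment) that occupy windows at a given distance from the lost window (horizontal axis, kb), averaged over the 857 lost windows, in cut lists (left) and full lists (right). Sham (blue) stands clear of FT (orange) at the window and its 2 neighbours in the cut lists, by 9.69 libraries at the centre, and FT exceeds Sham at the centre in the full lists.

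The loci with the largest excess are given by their Rn5 position, without gene names since no Rn5 annotation was used. The largest lay at chr11:93517001-93519000, where 28 Sham and 3 FT libraries held the best window. Both Sham libraries and no FT library held it in PLC, ILC, CGC, NaCcore, LS, MS, BLA and CMA. By replicate it was held in 12 of 24 and 16 of 22 Sham libraries, and in 3 of 24 and 0 of 22 FT libraries. Of the Sham lists of 35000 peaks or more, 6 of 18 and 4 of 9 held it. Among FT lists of that length, 1 of 22 and 0 of 22 held it. Its median rank in the full lists was 15036 in Sham (1268 to 34364) and 31168 in FT (6802 to 45044), and 45 Sham and 37 FT full lists held it. No kept FT peak lay within 2 kb in any of the 43 FT libraries without it, and 34 of them covered it beyond the cut. The peaks were narrow, with a median of 1200 bp in Sham and 1100 bp in FT.

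At chr18:36702001-36704000 the best window was held in 28 Sham and 5 FT libraries, and by both Sham libraries and no FT library in PLC, NaCcore, BNST, BLA and VTA. Of the Sham lists of 35000 peaks or more, 6 of 18 and 5 of 9 held it, by replicate. Among FT lists of that length, 1 of 22 and 2 of 22 held it. Its median full-list rank was 13443 in the 44 Sham full lists that held it and 34553 in the 35 FT full lists that held it. A locus at chr11:41545001-41547000 was the most widespread in Sham of the 12 loci described, held in 42 Sham and 20 FT libraries, and in 23 of 24 and 19 of 22 Sham against 9 of 24 and 11 of 22 FT libraries by replicate. Of the Sham lists of 35000 peaks or more, 17 of 18 and 9 of 9 held it. Among FT lists of that length, 9 of 22 and 11 of 22 held it. Both Sham libraries and no FT library kept it in ILC, NaCcore, BLA, CMA, dorDG, venDG, Raphe and Snt. Here the full lists held it in 44 Sham and 45 FT libraries, with a median rank of 11993 in Sham and 19806 in FT, and 25 of the 26 FT libraries without it in the cut list covered it beyond the cut.

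At the next loci the Sham excess on the full lists was 1 library at most. At chr3:174067001-174068000 there were 27 Sham and 9 FT libraries, and 40 of each on the full lists. At chr16:50217001-50219000 there were 26 and 9, and 35 and 42 on the full lists. An excess of 16 was reached with 18 Sham and 2 FT libraries at chr9:7528001-7529000 and chr10:85394001-85395000. On the full lists these stood at 46 and 45, and at 34 and 43. The same excess was reached with 21 and 5 at chr1:162655001-162656000, chr8:4454001-4456000 and chr15:37101001-37103000. Their full-list numbers were 33 and 36, 42 and 44, and 36 and 42. With 24 and 8 it was reached at chr4:179746001-179749000 and chr12:9169001-9170000. There the full lists gave 35 and 36, and 38 and 37.

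A kept FT peak stayed within 2 kb at few of these loci. At chr10:85394001-85395000 it did so in 35 of the 44 FT libraries without the window, and at chr12:9169001-9170000 in 20 of 38. At chr16:50217001-50219000 the count was 2 of 37, and at the other 9 loci it was 0. At chr4:179746001-179749000, the only locus of 3 adjoining windows, 15, 24 and 14 Sham libraries and 7, 8 and 5 FT libraries held the windows in order. None of the 12 loci was held by both FT libraries and neither Sham library in any region.

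The 77 windows that also met the excess on the full lists differed from the other 780 in the libraries that held them, a split made after the values were seen. They were occupied in a median of 10 Sham libraries and 1 FT library, against 20 and 10 for the others. Their median width in Sham full lists was 1200 bp, against 1600 bp. Sham lists of under 35000 peaks occupied 52.1% ± 26.3 of the 77 (SD, n = 19), and longer Sham lists 6.73% ± 4.25 (SD, n = 27). Of the FT libraries, the 24429-peak NaCshell replicate 1 list occupied 50 of the 77 and the 44 lists of 35000 peaks or more occupied 0 to 5. Of the 48 windows among them held by a single FT library, that library was NaCshell replicate 1 in 45. Short lists supplied 762 of the 902 Sham occupancies of the 77 windows. Of the 114 FT occupancies, 50 came from NaCshell replicate 1 and 5 from the other FT list of under 35000 peaks.

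The other 780 windows were held at similar shares in short and long Sham lists. They were occupied at 46.9% ± 12.7 in Sham lists of under 35000 peaks (SD, n = 19) and at 47.7% ± 12.2 in longer Sham lists (SD, n = 27). The 44 FT lists of 35000 peaks or more occupied 26.7% ± 9.56 of them (SD, n = 44). The share of all windows occupied in at least 8 libraries was not averaged by list length. In Sham lists that share ran from 21.1% (PLC replicate 2, 19629 peaks) to 57.5% (Snt replicate 1, 49122 peaks). The part of list length in the similar shares of the 780 was not tested. Since the rule used the same libraries, nothing is drawn from the gap to FT. Over all 857 windows and lists of 35000 peaks or more alone, Sham libraries occupied 44.0% ± 11.2 (SD, n = 27) and FT libraries 24.4% ± 8.73 (SD, n = 44).

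**Figure D5:**
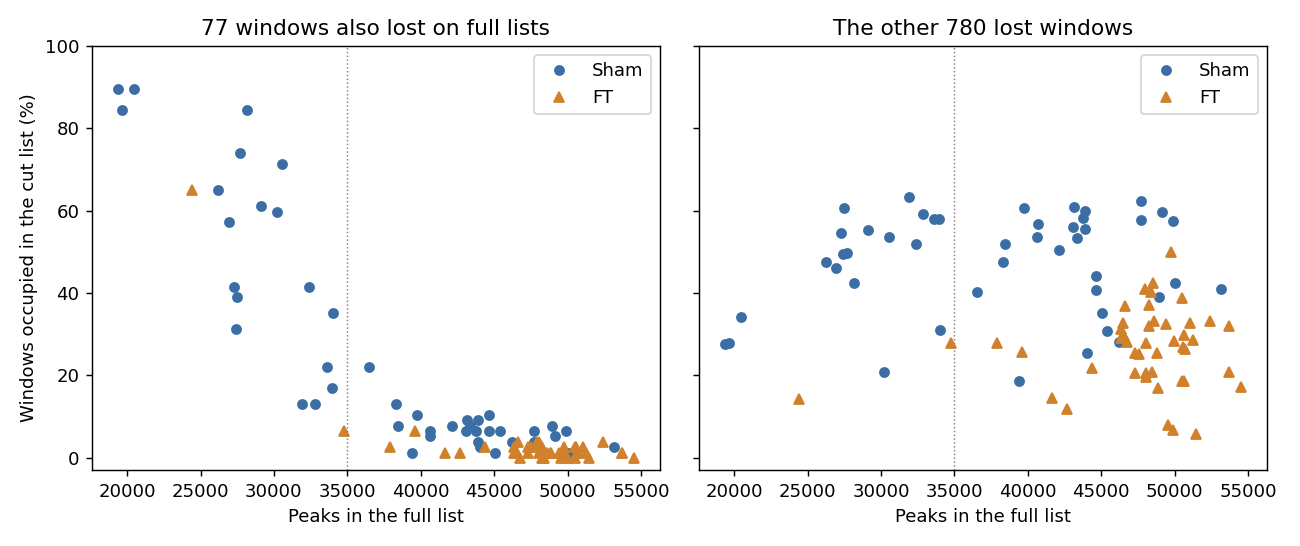
Share of windows occupied in the cut list (vertical axis, %) against the number of peaks in the full list (horizontal axis), 1 point a library, for the 77 windows also lost on full lists (left) and the other 780 (right), with a dotted line at 35000 peaks. On the left the high points are short lists of either treatment, up to 89.6% in Sham and 64.9% in FT, and on the right Sham points lie mostly above FT points at lists of 35000 peaks or more.

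A few lost windows stood high in the lists, and these were picked after their values were seen. In 3 windows the median full-list rank was within the best 25% of the cut list in both treatments. At chr3:35192001-35193000 the peak was held in 34 Sham and 18 FT libraries, and in the same numbers on the full lists. By replicate these were 21 of 24 and 13 of 22 Sham libraries, and 10 of 24 and 8 of 22 FT libraries. Its median rank was 1810 in Sham and 2919 in FT, so where present it was a strong peak. In lists of 35000 peaks or more it was held in 15 of 18 and 5 of 9 Sham and in 9 of 22 and 8 of 22 FT libraries. A window with at least 8 more FT than Sham libraries lay within 2 kb of this window. Whether the peak sat beside the window in FT was not tested. At chr20:5282001-5283000 the peak was held in 18 Sham and 9 FT libraries, unchanged on the full lists, with median ranks of 1692 and 1932. At chr1:86595001-86596000 it was held in 43 Sham and 35 FT libraries and, on the full lists, in 43 and 44.

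The replicates were set side by side as a description, with no test, since the same libraries chose the windows. Over the 21 regions with 4 libraries, Sham replicate 1 occupied 47.0% ± 11.3 of the lost windows and Sham replicate 2 occupied 44.4% ± 11.1 (SD, n = 21 regions). The mean difference was 2.63 percentage points, with replicate 1 higher in 12 regions and lower in 9. FT replicate 1 occupied 24.9% ± 9.03 and FT replicate 2 occupied 23.8% ± 9.04, a difference of 1.08 points, higher in 11 regions and lower in 9. The best 10000 peaks gave 8.15 points in Sham and 3.98 in FT, and on the full lists the direction turned, to -9.73 and -2.63. The regions of a replicate share their animals, so these are 2 pools a treatment.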

How the data were processed

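H3K27ac ChIP-seq peak lists of 94 libraries (1 list a library) were analysed. Per the submitters' processing notes reads were aligned with BWA to Rn5, and per the study's methods DFilter called peaks in each library. Each deposited peak has a score (the authors' maximum score), a −log10 p-value, a tag count (unit: score, scaling not given in the sources used here) and a false discovery rate in percent, which the authors' lists give as 0 throughout. The 4 input libraries entered no comparison, and read depth was unknown. Lists were ranked by score, cut to 19378 peaks (the shortest list) and laid on 1 kb windows, occupied at 500 bp of cover or more. The HB libraries were left out. The members, loci and alternatives were chosen with earlier results of these data known. A sign-flip permutation test of replicate 1 against 2 had been laid down, and its p-values are not given because the same libraries chose the windows. Sham and FT libraries of a replicate were processed in parallel per the study's methods, so the replicate numbers pair them. Their deviations within a region correlated at a mean of 0.0143 (-0.072 to 0.126, 21 regions). Loci were named by the largest excess of Sham libraries (12 loci, ties by fewer FT libraries, then position), plus that with the most adjoining windows, which was among them. Steps were tested on simulated lists. Python 3.11.15, NumPy 2.4.6 and pandas 2.3.3 were used. Start positions were read as counted from 0 and are printed counted from 1. A reference on another build was not used.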

Additional observations from a re-analysis of the deposited data

Results flagged for a closer look

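Data outside the comparisons were read at the same 857 windows. The Sham HB library, left out for its narrow peaks, occupied 62 of them (7.23%), against 0.217% of all windows occupied in at least 8 libraries. It held 48 of the 77 windows also lost on full lists (62.3%) and 14 of the other 780 (1.79%). The FT HB library occupied 352 (41.1%) in its cut list, against 55.2% of all windows, and 748 (87.3%) in its full list, with 3 of the 77 and 349 of the 780. With 1 library a treatment these values have no replicate check. On chromosome X, which the rule left out, 21 of 1750 windows occupied in at least 8 libraries were lost (1.20%) and 308 (17.6%) had at least 8 more FT libraries, with a largest excess of 14 Sham libraries.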

How the results depend on the processing

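The count of 857 lost windows was taken again under 15 other settings and 2 chosen after seeing the data. Ranking by −log10 p-value gave the same 857 windows, so that setting was no separate check. The count stayed within 1.5 times at 10000 peaks (867), full lists (750), peak centres (1223), the 21 regions with 4 libraries (732) and lists of 25000 peaks or more (836, added). It moved to 2222 with equal covered length, 1615 when ranked by tag count, 225 at 900 bp covered, 1512 at 100 bp covered, 344 at a threshold of 10 libraries and 1678 with lists of 35000 peaks or more (added). Leaving out a replicate of 1 treatment, at the same difference in share, gave 980 to 1764, the lowest being for FT replicate 2 and the highest for Sham replicate 2 left out. The count was 1290 once Sham replicate 1 was dropped. With the replicate block (45 same-numbered Sham and FT pairs) 829 were lost, 784 of them among the 857. Pairing by replicate number moved no result by more than 1.5 times.

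The shared windows were fewer than the counts. Of the 857, 53 were lost at equal covered length (6.18%), 309 by tag count (36.1%), 560 with peak centres (65.3%), 543 with lists of 35000 peaks or more (63.4%), and 516 to 633 without 1 replicate of a treatment. The cause was not tested.

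The 3.97% share with a kept FT peak within 2 kb moved to 6.53% on full lists, 1.55% at equal covered length, 1.20% by tag count, 8.24% at 900 bp covered, 49.9% with peak centres and 10.04% with lists of 35000 peaks or more. It was 2.29% to 9.20% without a replicate, the lowest for Sham replicate 1, the highest for Sham replicate 2 and 6.00% for FT replicate 1 left out. With the replicate block it was 4.06%. For peak centres, an FT peak whose centre lies in the next window counts as kept nearby by construction.

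The Sham replicate difference of 2.63 points was 8.15 at 10000 peaks, 4.78 at 900 bp covered and 4.04 with peak centres, and reversed on full lists (-9.73). The FT difference of 1.08 points was 3.98 at 10000 peaks and 3.20 at equal covered length, and reversed on full lists (-2.63). With the replicate block they were 3.49 and 1.09. Depth was unknown, so an absent peak cannot be told from one below detection.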
